A study of Homo sapiens with 6 samples.

Results

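The metal response described here comprises 5 metallothionein genes (MT1E, MT1F, MT1G, MT1X and MT2A), the zinc exporter gene SLC30A1 and the transcription factor gene MTF1. These 7 genes were found by symbol, each in 1 row, among the 60643 rows of the deposited expression table. They were measured in HCT116, an established human colorectal cancer cell line, transfected with a short hairpin RNA (shRNA) that doxycycline induces and that targets CAPG, an actin filament capping protein. The 3 libraries without doxycycline carried the uninduced shRNA and are labelled WT. The 3 libraries with doxycycline came from cells given the drug for 3 days (100 ng/µl in the labels' own unit) and are labelled CAPG Knockdown. The label descriptions name a single hairpin (shCAPG-2), and cells given doxycycline without it were not analysed here, so the drug and the knockdown cannot be told apart. The labels do not tell whether replicates were separate cultures. The p-values below therefore reflect the spread among these libraries alone, which may be technical. In bulk RNA, fewer cells expressing a gene and less of its RNA per cell cannot be told apart.

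Metallothioneins are small cysteine-rich proteins that bind zinc, copper and cadmium. MTF1 is a zinc-sensing transcription factor that binds metal response elements in the promoters of metallothionein genes and of SLC30A1, whose product (ZnT1) moves zinc out of the cell across the plasma membrane. When free zinc rises, MTF1 raises the output of these genes, so they serve as a readout of cellular zinc and of cadmium exposure.

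CAPG, the targeted gene, was at 61.1, 56.9 and 53.7 FPKM (fragments per kilobase of transcript, scaled to library size) in replicates 1, 2 and 3 without doxycycline and at 8.18, 8.03 and 9.97 FPKM with it. Estimated depth was 15200000 to 19600000 fragments per library, lowest in untreated replicate 3. The FPKM total was highest in treated replicate 3, at 586911, the other 5 libraries lying between 521832 and 536037. Of 14475 genes that reached at least 1 FPKM in at least 3 libraries and were tested, 8.46% passed a limma adjusted p of 0.05, 3.69% as higher and 4.77% as lower with doxycycline. Summed levels of 7 colorectal epithelial markers were 1658 to 1860 FPKM without and 1867 to 2202 FPKM with doxycycline. Of the 7, 6 were at 1 FPKM or more in every library, and VIL1 was at no more than 0.133 FPKM. Most of the sum came from KRT8, KRT18, KRT19 and EPCAM, while CDX2 was at 4.41 to 6.35 FPKM. Among these markers only EPCAM was called (log2 change 0.34, limma adjusted p = 0.0401). Fibroblast markers summed to 7.97 to 11.3 and 7.58 to 9.80 FPKM, nearly all from COL1A1, with COL1A2 and DCN at 0 in every library. Leukocyte markers summed to at most 1.96 FPKM and endothelial markers to at most 0.574 FPKM in any library. Hepatocyte markers, the liver being a tissue rich in metallothioneins, summed to 1.26 to 1.46 FPKM without and 2.84 to 3.60 FPKM with doxycycline, with TTR at 0 throughout. SERPINA1, which is also made by intestinal epithelium, accounted for most of that (log2 change 0.86, limma adjusted p = 0.00546). The part of these markers and of the FPKM total in the results below was not tested, except where a value with equal totals or without a library is given.

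The metallothionein genes are near copies of one another in coding sequence, which may bear on the metallothionein values below. The 5 coding sequences and a processed pseudogene of the family, MT1P3, are printed 5′ to 3′ from GENCODE 29 transcripts (GRCh38). Coding sequences are given without the stop codon and the pseudogene over its whole annotated span (chr20:35218009-35218185, plus strand). Capitals mark bases that differ from the printed MT2A sequence in a pairwise alignment, or that it lacks. The closing TGA of MT1P3 is in capitals because MT2A is printed without its stop codon. Bases of MT2A that another sequence lacks are not marked.
MT2A: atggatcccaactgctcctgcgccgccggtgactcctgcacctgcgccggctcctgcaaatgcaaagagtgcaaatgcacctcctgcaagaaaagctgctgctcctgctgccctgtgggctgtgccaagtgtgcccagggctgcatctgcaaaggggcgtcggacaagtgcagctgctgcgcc
MT1E: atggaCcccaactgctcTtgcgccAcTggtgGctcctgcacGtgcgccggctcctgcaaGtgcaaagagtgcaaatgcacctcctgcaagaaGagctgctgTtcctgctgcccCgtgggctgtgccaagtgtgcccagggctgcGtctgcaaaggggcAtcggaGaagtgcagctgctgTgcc
MT1X: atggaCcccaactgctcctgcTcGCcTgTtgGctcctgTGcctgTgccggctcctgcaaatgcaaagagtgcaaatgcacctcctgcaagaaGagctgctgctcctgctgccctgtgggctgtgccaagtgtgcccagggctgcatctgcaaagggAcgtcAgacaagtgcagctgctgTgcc
MT1F: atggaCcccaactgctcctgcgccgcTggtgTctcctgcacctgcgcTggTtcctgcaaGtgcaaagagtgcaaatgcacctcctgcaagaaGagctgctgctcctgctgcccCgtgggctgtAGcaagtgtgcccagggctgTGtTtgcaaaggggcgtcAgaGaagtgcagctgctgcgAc
MT1G: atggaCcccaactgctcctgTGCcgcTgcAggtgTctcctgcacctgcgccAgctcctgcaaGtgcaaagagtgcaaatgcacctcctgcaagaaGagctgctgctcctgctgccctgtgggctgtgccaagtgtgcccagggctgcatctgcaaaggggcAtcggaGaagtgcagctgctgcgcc
MT1P3: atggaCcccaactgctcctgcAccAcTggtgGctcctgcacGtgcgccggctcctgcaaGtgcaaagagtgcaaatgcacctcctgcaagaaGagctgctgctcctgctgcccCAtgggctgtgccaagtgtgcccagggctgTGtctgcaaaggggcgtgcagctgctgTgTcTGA

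MT2A, MT1E, MT1X and MT1F each had 61 codons and MT1G had 62, and 20 of the codons in each gene were for cysteine, the residue that holds the metal. MT1E and MT1X each differed from MT2A at 14 bases, MT1F at 16 and MT1G at 12 (inserted bases included). Identity between coding sequences ran from 88.5% (MT1X and MT1F) to 93.5% (MT2A and MT1G). Over the protein-coding transcripts of each gene, UTRs included, 4.24% of the distinct 50-base windows of MT2A were also found, on either strand, in a transcript of another gene, 7.1% of those of MT1E, 3.27% of MT1F, 16.5% of MT1G and 43.6% of MT1X. With 100-base windows the shares were 0 for MT2A, MT1E, MT1F and MT1G and 30.8% for MT1X, all with AC026461.1, a noncoding transcript that starts at the same base as MT1X and was listed at no more than 1.99e-05 FPKM in any library. The sources used here state no read length, and how far the authors' counting moved reads between these genes was not tested.

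The promoters of 4 of the 7 members were matched by symbol in RefSeq (GRCh38.p14). The 250 bases before the gene start are printed for 3 metallothionein genes and SLC30A1, because MTF1 acts through this stretch. MT1H is shown for comparison as a neighbour of the expressed genes that was itself near 0. The windows are chr16:56608334-56608583 (MT2A, plus strand), chr16:56682220-56682469 (MT1X, plus strand), chr16:56669564-56669813 (MT1H, plus strand) and chr1:211579162-211579411 (SLC30A1, minus strand). Capitals mark the core of the metal response element, searched as TGCACNC and TGCGCNC on both strands, with each stretch counted once.
MT2A: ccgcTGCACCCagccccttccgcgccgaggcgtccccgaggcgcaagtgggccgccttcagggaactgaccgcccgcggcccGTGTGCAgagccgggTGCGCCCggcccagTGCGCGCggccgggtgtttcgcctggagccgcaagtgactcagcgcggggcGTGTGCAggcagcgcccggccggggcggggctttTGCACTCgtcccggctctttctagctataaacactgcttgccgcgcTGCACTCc
MT1X: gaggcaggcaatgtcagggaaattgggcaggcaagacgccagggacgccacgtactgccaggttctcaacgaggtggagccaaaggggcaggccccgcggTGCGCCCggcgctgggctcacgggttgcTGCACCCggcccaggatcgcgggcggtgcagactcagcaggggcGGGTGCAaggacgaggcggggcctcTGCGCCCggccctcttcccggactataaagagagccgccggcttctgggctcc
MT1H: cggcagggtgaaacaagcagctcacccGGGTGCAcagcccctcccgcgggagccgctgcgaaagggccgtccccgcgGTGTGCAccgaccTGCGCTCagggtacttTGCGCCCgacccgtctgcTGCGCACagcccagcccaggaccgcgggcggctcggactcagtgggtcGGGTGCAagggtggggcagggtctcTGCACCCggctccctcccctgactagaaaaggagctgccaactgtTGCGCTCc
SLC30A1: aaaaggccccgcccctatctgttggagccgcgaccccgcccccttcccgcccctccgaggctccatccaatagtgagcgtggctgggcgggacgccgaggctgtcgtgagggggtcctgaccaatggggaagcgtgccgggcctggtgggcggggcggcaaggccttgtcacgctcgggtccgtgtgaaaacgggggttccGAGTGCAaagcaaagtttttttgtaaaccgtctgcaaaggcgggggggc

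The MT2A window held 7 matches to the core, a number reached by 0.0313% of 35116 RefSeq promoter windows of the same length. MT1X held 4 (reached by 0.37%), SLC30A1 held 1 (24.8%), and MTF1 held 0. The window of MT1H held 8 (0.0171%) and that of MT1B, another neighbour, held 3 (1.58%), although both genes were at or near 0 in these cells. In MT2A the matches started 246, 168, 153, 139, 88, 54 and 8 bases before the gene start, and in MT1X 150, 122, 78 and 53 bases before it. The core of the antioxidant response element, TGACNNNGC, was found once each in the windows of MT2A, MT1X, SLC30A1 and MT1B and in 10.9% of all windows. The windows of MT1H and MTF1 held 0. A match describes the letters in the window and is not evidence of binding.

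Metallothionein genes, SLC30A1 and MTF1 did not pass the test with doxycycline, and each had overlapping groups. Of the 7 members, 6 reached the expression filter, and of these 0 were called higher and 0 lower by limma (adjusted p under 0.05), where 8.46% of all 14475 tested genes were called. At an unadjusted p under 0.05 the count was again 0 of 6, where the share over all tested genes was 27.9%, and in 0 of 6 did the groups fail to overlap, where that share was 34.5%. The median log2 change over the 6 members was 0.06 (median over all tested genes, -0.003), with 4 positive and 2 negative values. Log2 changes are with minus without doxycycline on the log2(FPKM + 1) scale.

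**Figure D1:**
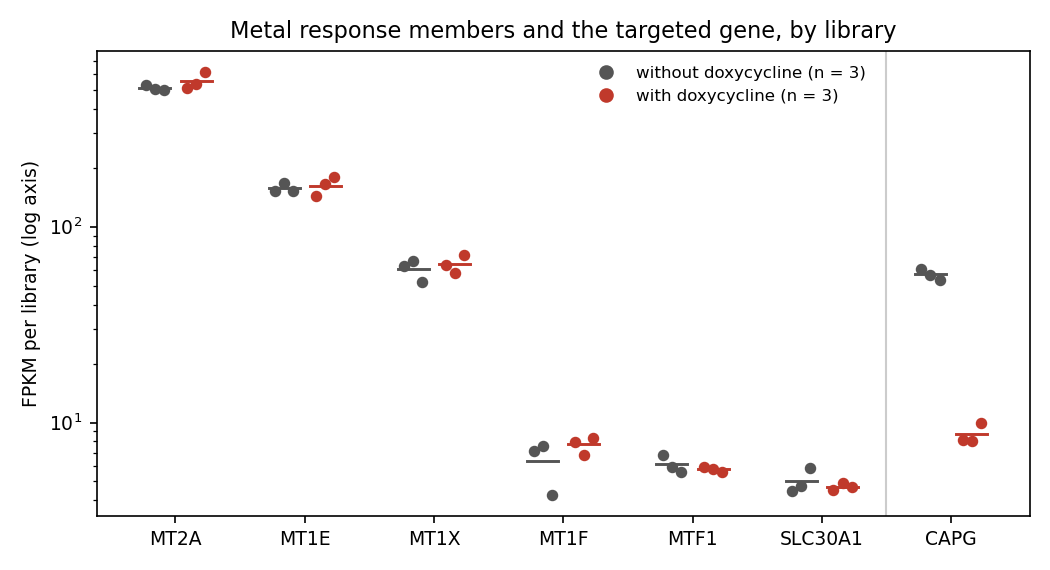
FPKM of the tested members and of CAPG in each library (log axis). Points are libraries and short lines group means, grey without and red with doxycycline (n = 3 each). MT1G is not drawn because it was listed at 0 in all 6 libraries. The groups overlap in all 6 members and are apart in CAPG (53.7 to 61.1 against 8.03 to 9.97 FPKM).

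MT2A, the most abundant metallothionein in many tissues (ENSG00000125148, chr16:56608584-56609497), was at 526, 503 and 498 FPKM without doxycycline and at 509, 537 and 617 FPKM with it. The highest value was in treated replicate 3, the library with the largest FPKM total, and treated replicate 1 lay inside the untreated range. The means were 509 ± 14.9 and 555 ± 56.1 FPKM (SD, n = 3 each; log2 change 0.12, SE 0.09, limma adjusted p = 0.416). The 95% confidence interval of the change, -0.08 to 0.32, corresponds to 0.947 to 1.25 times the level without doxycycline. Without treated replicate 3 the log2 change was 0.04, and with equal totals it was 0.07.

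MT1E (ENSG00000169715, chr16:56625475-56627112), an MT1 isoform gene, came next in abundance, at 151, 168 and 153 FPKM without and 143, 165 and 179 FPKM with doxycycline. The treated libraries held both the lowest and the highest of the 6 values. The log2 change was 0.04 (interval -0.18 to 0.26, limma adjusted p = 0.837). With libraries scaled to equal totals it was -0.02, and without treated replicate 3 it was -0.04.

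MT1X (ENSG00000187193, chr16:56682470-56684196), a broadly inducible isoform gene, was at 63.1, 66.8 and 52.3 FPKM without and 63.4, 58.0 and 72.0 FPKM with doxycycline. The ranges overlapped over most of their length. The log2 change was 0.09 (interval -0.17 to 0.34, limma adjusted p = 0.663), and without untreated replicate 3, the lowest library, it was -0.02.

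MT1F (ENSG00000198417, chr16:56657731-56660698) was the least abundant of the expressed isoform genes, at 7.18, 7.60 and 4.29 FPKM without and 7.97, 6.85 and 8.38 FPKM with doxycycline. Untreated replicate 3 stood below the other 5 libraries, and the remaining untreated values lay within the treated range. Its log2 change of 0.28 was the largest of the members and also the least precise (SE 0.18, interval -0.12 to 0.67, limma adjusted p = 0.344). Without untreated replicate 3 the log2 change was 0.05.

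MT1G (ENSG00000125144, chr16:56666730-56668065, minus strand) was listed at 0 FPKM in all 6 libraries and was not tested. MT1G lies between MT1F and MT1X, which were both expressed. An exact 0 in a table without counts can also be a failed estimate, and 28276 of the 60643 rows were at 0 in every library.

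SLC30A1 (ENSG00000170385, chr1:211571568-211579161), the plasma membrane zinc exporter gene driven by MTF1, was at 4.48, 4.76 and 5.85 FPKM without and 4.53, 4.89 and 4.70 FPKM with doxycycline. The treated values fell inside the untreated range. The log2 change was -0.07 (interval -0.33 to 0.18, limma adjusted p = 0.719), and without untreated replicate 3, the highest library, it was 0.02.

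MTF1 itself (ENSG00000188786, chr1:37809574-37859592) was at 6.80, 5.95 and 5.58 FPKM without and 5.92, 5.77 and 5.58 FPKM with doxycycline. The highest value was in untreated replicate 1 and the other 5 libraries lay between 5.58 and 5.95 FPKM. The log2 change was -0.07 (interval -0.30 to 0.16, limma adjusted p = 0.705), and without untreated replicate 1 it was -0.001. MTF1 is regulated largely by zinc binding and nuclear entry of the protein, which an RNA level does not measure. Exact two-sided permutation tests gave p between 0.2 and 0.8 for the 6 members, where 3 against 3 libraries can reach no less than 0.1.

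The intervals bound what these libraries could have shown. The upper bounds for MT2A, MT1E and MT1X correspond to 1.25, 1.19 and 1.27 times the untreated FPKM + 1, and that for MT1F to 1.59 times. The lower bounds for SLC30A1 and MTF1 correspond to 0.797 and 0.813 times. At levels as low as those of MT1F, SLC30A1 and MTF1 the added 1 makes these bounds narrower than they would be in FPKM. A p that misses the threshold does not show that the levels were equal within these bounds.

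The order of the members was the same in every library at the top, with MT2A above MT1E and MT1E above MT1X on the FPKM scale. MT2A was 3.00 to 3.57 times MT1E, and MT1E was 2.25 to 2.93 times MT1X. Below them MT1F (4.29 to 8.38 FPKM), MTF1 (5.58 to 6.80) and SLC30A1 (4.48 to 5.85) overlapped and cannot be put in order. The 5 metallothionein members together summed to 748, 746 and 708 FPKM without and 723, 767 and 877 FPKM with doxycycline, or 0.136% to 0.141% of the library's total FPKM without and 0.137% to 0.149% with it. MT2A made up 67.5% of that sum in untreated replicate 2 and 70.1% to 70.4% in the other 5 libraries.

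Across the 6 libraries the members did not all move together. Pearson's r of log2(FPKM + 1) was 0.90 between MT1F and MT1X, 0.70 between MT1E and MT2A and -0.93 between MT1F and SLC30A1, given as descriptions over 6 points that share library depth and scaling. Untreated replicate 3 had the lowest MT1F and MT1X and the highest SLC30A1 of the 6. Among 13296 other tested genes with a gene symbol, those nearest in pattern to MT2A were PTRH2 (r = 0.999), NUDT1 (0.997) and PARK7 (0.996), and those nearest to SLC30A1 were SLC25A32 (0.994), CALU (0.991) and NAA16 (0.986). Like MT2A, PARK7 had its highest value in treated replicate 3 (214 FPKM, with 154 to 172 FPKM in the other libraries). In all, 125 genes reached r = 0.95 with MT2A and 22 with SLC30A1.

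**Figure D2:**
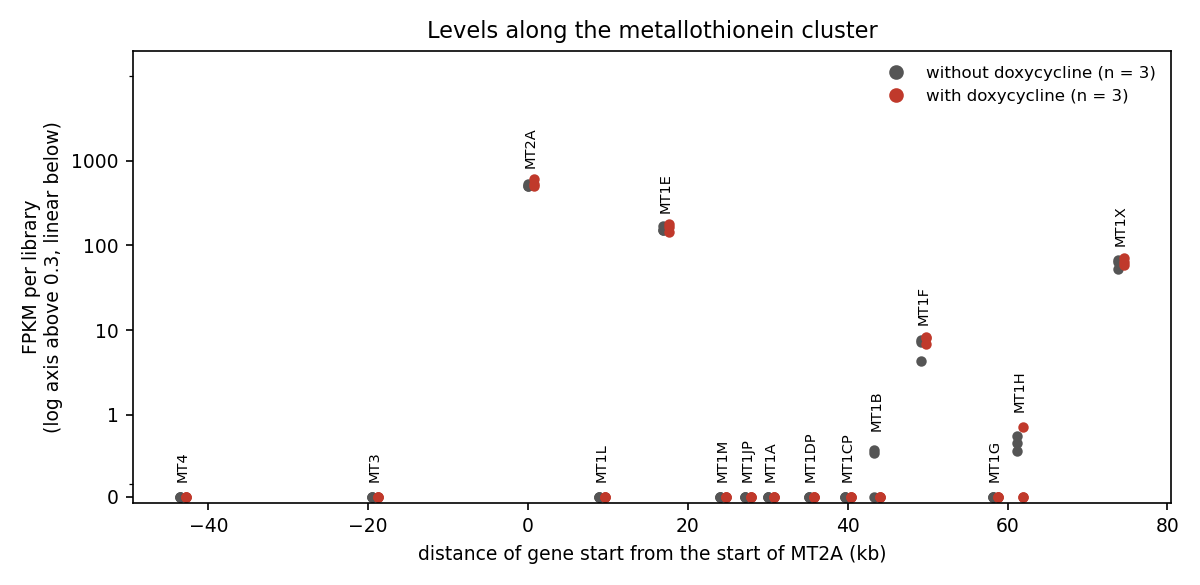
FPKM per library of the 5 metallothionein members and 10 other metallothionein genes and pseudogenes of the cluster on chromosome 16, placed by the distance of their start from that of MT2A (kb). Points are libraries, grey without and red with doxycycline (n = 3 each). The vertical axis is logarithmic above 0.3 and linear below. MT2A, MT1E, MT1F and MT1X stand at 4.29 to 617 FPKM, and the other genes are at or near 0.

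The other metallothionein genes of the cluster were at or near 0. Of 17 further metallothionein genes and pseudogenes listed, 14 had a row, 10 of these were at 0 in every library and 3 were above 0 but did not reach the filter. MT1M and MT1A, inducible isoform genes in other tissues, and MT3 and MT4, the isoform genes of brain and squamous epithelium, were among those at 0. MT1H was at 0.463, 0.375 and 0.561 FPKM without and at 0, 0 and 0.707 FPKM with doxycycline. MT1B was at 0.357, 0.386 and 0 FPKM without and at 0 in the 3 libraries with doxycycline. Levels this low rest on few fragments in short transcripts, and no difference between the groups is read from them.

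The weight of a single fragment rose steeply in short transcripts. In single-exon genes, 1 fragment was worth 0.0192 FPKM at a median length of 2678.5 bases, 0.216 FPKM at 489 bases, 0.539 FPKM at 339 bases and 9.42 FPKM at 171 bases. Multiplied by length, the weight at 171 bases was 31.4 times that of the longest class, where scaling by full length would give a constant. Metallothionein transcripts are short, so their FPKM rest on fewer fragments than the same FPKM would in a long gene. At the weights of genes of 300 to 1000 bases, the lowest MT2A value corresponds to 924 to 5472 fragments, the lowest MT1X value to 97 to 575 and the lowest MT1F value to 8 to 47. These are estimates that cover counting error only.

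**Figure D3:**
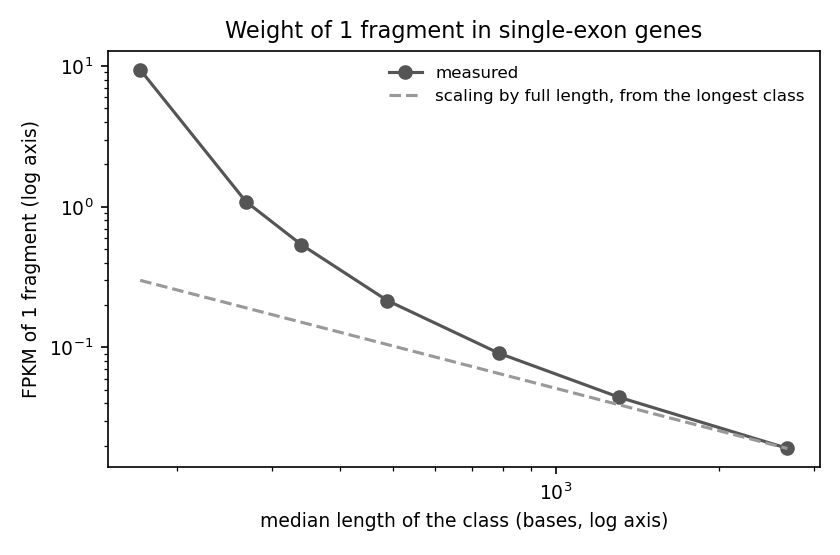
FPKM value of 1 fragment in single-exon genes against the median length of their class (both axes logarithmic), estimated from the most common low value over all 6 libraries. The dashed line is what scaling by full length would give from the longest class. The measured weight leaves that line in the short classes, reaching 9.42 FPKM at 171 bases.

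MT1P3 was listed above every member. This processed pseudogene of 177 bases on chromosome 20 was at 1125, 1319 and 1428 FPKM without and at 1212, 1060 and 1644 FPKM with doxycycline, more than MT2A in each library. The groups overlapped (log2 change -0.002, interval -0.35 to 0.35, limma adjusted p = 0.996), and of the 14 further metallothionein rows listed it was the 1 that was tested. At the weight of the shortest class its lowest value corresponds to about 113 fragments, fewer than the lowest estimate for MT2A. Of its 128 windows of 50 bases, 75 (58.6%) were also in transcripts of other genes, on either strand. MMP24OS, MT1E, MT1F, MT1G and MT1X were among these genes, and their separate parts of the share were not determined. With 100-base windows none was shared. Its coding-like sequence, printed above, was 91.8% identical to that of MT1E. MT1P3 also overlaps MMP24OS on the opposite strand, a gene that fell from 11.1 ± 0.563 to 6.60 ± 0.498 FPKM (limma adjusted p = 0.00612, named after its values were seen). Whether reads listed under MT1P3 came from the pseudogene, from MT1 genes or from the opposite strand was not tested.

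Zinc transporters outside the members did not pass the test either. ZnT proteins (SLC30) move zinc out of the cytosol into organelles or out of the cell, and ZIP proteins (SLC39) move it into the cytosol. Of 9 other exporter genes 6 were tested, and limma called 0 higher and 0 lower (3.69% and 4.77% over all tested genes), with 0 at an unadjusted p under 0.05 (27.9% over all tested genes). All 6 changes were negative (median log2 -0.14, with -0.003 over all tested genes). The groups did not overlap in 1 of the 6, SLC30A6 (34.5% over all tested genes). The smallest p were those of the Golgi transporter gene SLC30A7 and of SLC30A6. SLC30A7 was at 5.51, 6.30 and 6.57 FPKM without and 5.12, 5.64 and 4.54 with doxycycline (log2 -0.23, limma adjusted p = 0.221). SLC30A6 was at 8.29, 8.81 and 9.87 without and 7.78, 8.17 and 7.70 with it (adjusted p = 0.295). With 14 importer genes listed, 11 were tested, and again 0 were called in either direction (8.46% over all tested genes). At an unadjusted p under 0.05 there were 2 of the 11 (27.9% over all tested genes), and the median log2 change was 0.04.

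In 4 of the 11 importers the groups did not overlap (34.5% of all tested genes), and the 2 with the smallest p were lower in every treated library. SLC39A10, a plasma membrane importer gene that MTF1 represses in other cells, was at 22.2, 23.0 and 25.9 FPKM without and 20.6, 18.9 and 15.5 FPKM with doxycycline (log2 -0.36, interval -0.62 to -0.10, limma adjusted p = 0.0793). SLC39A14, an importer of zinc, iron and manganese, was at 35.3, 34.2 and 34.2 FPKM without and 31.6, 28.5 and 27.5 FPKM with doxycycline (log2 -0.24, adjusted p = 0.0994). The other 2, both plasma membrane importer genes, were higher in every treated library. SLC39A1 was at 25.4, 23.7 and 21.9 FPKM without and 25.7, 26.4 and 28.6 FPKM with doxycycline (log2 0.18, adjusted p = 0.226), and SLC39A6 at 51.2, 55.9 and 55.4 without and 61.9, 61.1 and 57.0 with it (log2 0.14, adjusted p = 0.26). Over the 12 alternative fits the adjusted p of SLC39A10 lay between 0.0702 and 0.229 and that of SLC39A14 between 0.0861 and 0.251.

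**Figure D4:**
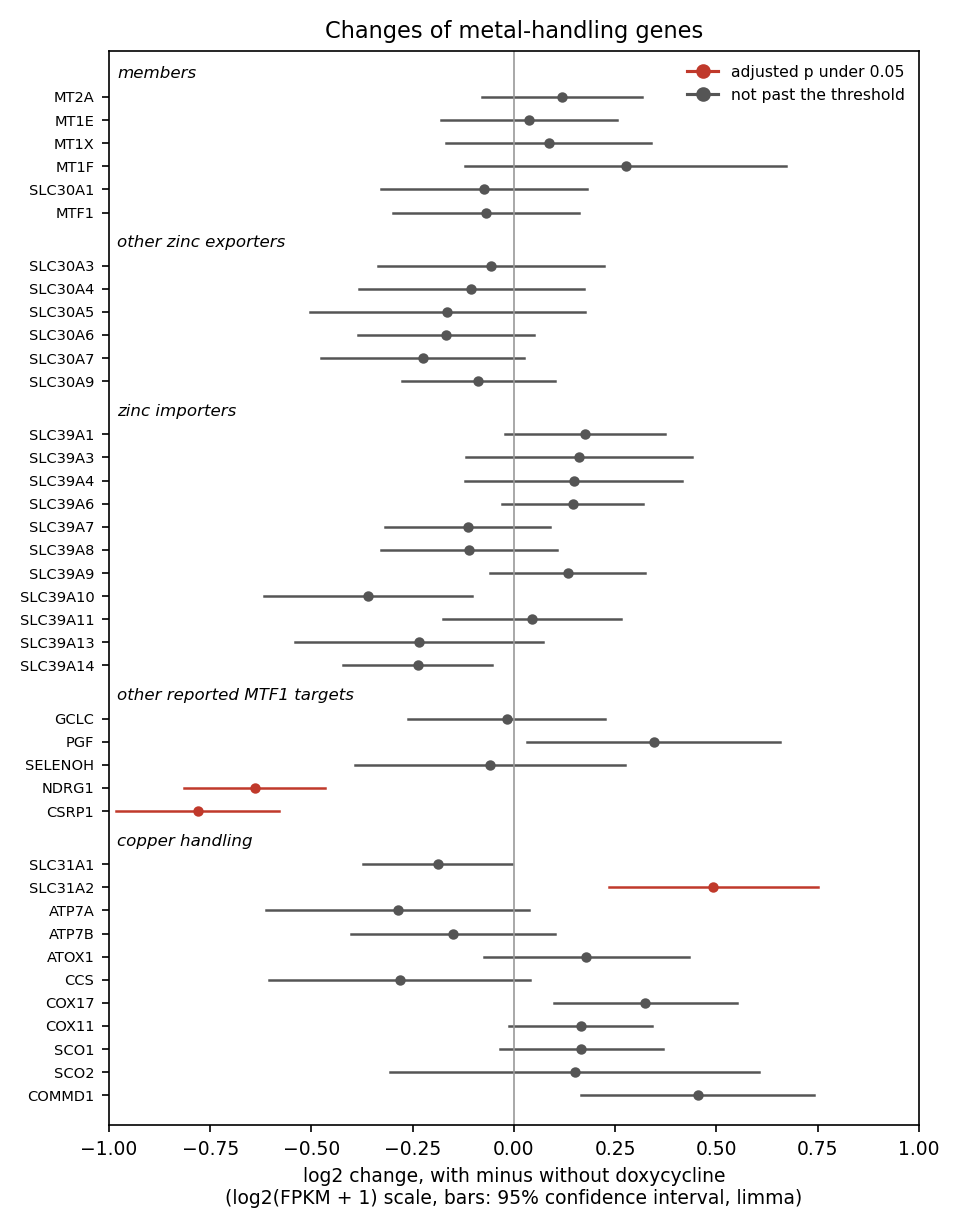
Log2 change with minus without doxycycline (points) and its 95% confidence interval (bars, limma) for the tested members, other zinc exporters, zinc importers, other reported MTF1 targets and copper-handling genes. Red marks an adjusted p under 0.05. The intervals of all 6 members include 0. Among genes in red, NDRG1 and CSRP1 lie below 0 and SLC31A2 above it. Among genes not past the threshold, the intervals of SLC39A10, SLC39A14 and SLC31A1 also lie below 0. Those of PGF, COX17 and COMMD1 lie above it.

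Some genes reported as MTF1 targets in other systems had lower levels with doxycycline. Of 5 such genes, all tested, limma called 2 lower (the share over all tested genes was 4.77%) and 0 higher. Like the other lists, this one was chosen with earlier results of these data known, so the count is a description only. CSRP1, which encodes a zinc-binding LIM protein of the actin cytoskeleton, went from 26.8, 26.1 and 28.4 to 14.1, 15.2 and 16.7 FPKM (log2 -0.78, SE 0.09, adjusted p = 0.00264). NDRG1, a metal- and hypoxia-responsive gene, went from 227, 236 and 211 to 142, 139 and 150 FPKM (log2 -0.64, SE 0.08, adjusted p = 0.00304). Neither gene's groups overlapped, and both calls held in all 12 alternative fits (adjusted p up to 0.0297 and 0.0347). GCLC, the catalytic subunit gene of glutathione synthesis, and the selenoprotein gene SELENOH had log2 changes of -0.02 and -0.06 (adjusted p = 0.936 and 0.833), and PGF, a placental growth factor gene, one of 0.35 (adjusted p = 0.143). The median of the list was -0.06. NDRG1 is also a target of hypoxia signalling.

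Copper, which metallothioneins also bind, is handled by a separate set of genes. Of 11 tested, limma called 1 higher and 0 lower, against 3.69% and 4.77% over all tested genes. The median log2 change was 0.17, and 4 of the 11 had an unadjusted p under 0.05, against 27.9% over all tested genes. SLC31A2, a CTR2 gene of intracellular copper handling, went from 2.07, 1.86 and 1.58 to 2.94, 3.13 and 2.89 FPKM (log2 0.49, adjusted p = 0.0328). Leaving out any 1 library ended its call, with adjusted p of 0.0553, 0.108 and 0.0794 without untreated replicates 1, 2 and 3 and 0.0794, 0.106 and 0.0559 without treated replicates 1, 2 and 3. With no filter on low values it was 0.0928, and with replicate number added to the fit as a block it was 0.0841. Of the 11 changes, 7 were positive and 4 negative. COMMD1 and COX17 had log2 changes of 0.454 and 0.325 (limma adjusted p = 0.058 and 0.0752). The plasma membrane copper importer gene SLC31A1 and the copper pump genes ATP7A and ATP7B had log2 changes of -0.19, -0.29 and -0.15 (adjusted p = 0.171, 0.228 and 0.419).

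Other factors that act at metallothionein promoters were called higher in part. Of 7 tested, limma called 2 higher (3.69% over all tested genes) and 0 lower, with a median log2 change of 0.16. NFE2L2, which encodes NRF2, an activator at antioxidant response elements, went from 45.9, 47.8 and 46.4 to 55.5, 60.1 and 63.0 FPKM (log2 0.34, limma adjusted p = 0.0308). USF2, an E-box factor, went from 30.7, 27.2 and 26.0 to 36.4, 35.3 and 40.4 FPKM (log2 0.41, adjusted p = 0.0308). NFE2L2 was no longer called on leaving out any untreated replicate (adjusted p = 0.0784, 0.109 and 0.0704 for replicates 1, 2 and 3) or treated replicate 2 (0.101). USF2 was no longer called on leaving out any treated replicate (0.0658, 0.0654 and 0.0592) or untreated replicate 2 or 3 (0.122 and 0.0788). With no filter on low values the adjusted p of NFE2L2 and USF2 were 0.0928 and 0.115. With a plain empirical Bayes fit they were 0.0545 and 0.0513, and with the replicate block 0.0821 and 0.0866. The glucocorticoid receptor gene NR3C1, the heat shock factor gene HSF1, SP1, USF1 and STAT3 did not pass the test (log2 changes between -0.17 and 0.20).

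Genes that respond to cadmium or zinc overload through other factors were mixed. Of 9 listed 8 were tested, and limma called 2 higher and 0 lower, the shares over all tested genes being 3.69% and 4.77%. The median log2 change was 0.06. HSPA1B, a heat shock protein gene under HSF1, went from 37.9, 34.6 and 30.2 to 50.6, 50.6 and 53.2 FPKM (log2 0.58, limma adjusted p = 0.01). It is nearly identical to HSPA1A, which was below 1 FPKM in every library, so its value is uncertain. With no filter on low values the adjusted p of HSPA1B was 0.0665, and with the replicate block it was 0.0529. SLC7A11, the cystine importer gene under NRF2 and ATF4, went from 6.49, 6.93 and 8.40 to 12.3, 12.5 and 9.94 FPKM (log2 0.61, adjusted p = 0.022). Its call ended on leaving out untreated replicate 1 or 2 or treated replicate 1 or 2 (0.0656, 0.0894, 0.0583 and 0.0683). It also ended with no filter (0.105) and with the replicate block (0.0794). HMOX1, the heme oxygenase gene that cadmium strongly induces, was at 13.7, 13.0 and 12.3 FPKM without and 12.5, 11.6 and 15.5 FPKM with doxycycline (log2 0.01, adjusted p = 0.96). TXNRD1, SRXN1 and GCLM, targets of NRF2, had log2 changes of -0.13, 0.01 and -0.14 (adjusted p = 0.332, 0.929 and 0.384).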

How the data were processed

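RNA sequencing expression values of 6 libraries were analysed, 3 per group. The authors deposited 1 value per gene and library. The FPKM values were computed by the authors before deposit, scaled to transcript length and library size. The unit was read from the values, because the file header names none. The submitters' processing notes name Bowtie, BWA, STAR, Cufflinks, RSEM and kallisto without versions or roles, and the build hg19. Gene positions as deposited matched GRCh38, starts being 0-based (39321 of 39331 rows sharing a versioned identifier with GENCODE 29 had its locus), so coordinates are given on GRCh38, counted from 1. Depth and the weight of 1 fragment were estimated from the low values of single-exon genes, and short genes weighed more than their full length gives.

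The 14475 genes that reached 1 FPKM in 3 or more libraries were fitted in limma 3.58.1 (R 4.3.3) as log2(FPKM + 1) (trended, robust empirical Bayes, group as the only term, two-sided, Benjamini-Hochberg adjustment, threshold 0.05). Alternatives changed the pseudocount, filter, scaling or variance model, added a replicate block or left out each library. Coding sequences were aligned with Biopython 1.88. The members and lists were chosen with earlier results of these data known. Named genes were the members, CAPG, up to 4 called genes of each list or otherwise the 2 with the smallest p, and the 3 genes nearest in pattern to MT2A and to SLC30A1. Further list genes and MMP24OS, MT2P1 and HSPA1A were named after their values were seen. Names of 3 listed pseudogenes matched no row and were not analysed here.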

Additional observations from a re-analysis of the deposited data

How the results depend on the processing

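No member passed the threshold in any of the 12 alternative fits (72 results, adjusted p of at least 0.259). Of these, 4 had the opposite sign to the value reported, for causes that were not tested: MT1E at -0.016 (log2) with equal totals and -0.037 without treated replicate 3, and MT1X at -0.016 and SLC30A1 at 0.022 without untreated replicate 3. Leaving out 1 library gave -0.037 to 0.127 for MT1E, -0.016 to 0.158 for MT1X, -0.139 to 0.022 for SLC30A1, -0.18 to 0.136 for MT1P3, 0.054 to 0.405 for MT1F, 0.039 to 0.178 for MT2A (lowest without treated replicate 3) and -0.123 to -0.001 for MTF1 (without untreated replicates 3 and 1). MT2A was at 0.065 and MTF1 at -0.115 with equal totals. Members and zinc transporters were called in 0 cases throughout, and 2 other reported MTF1 targets were called lower in each fit. The number of all genes called moved more. From 534 higher and 691 lower it went to 53 and 100 with no filter on low values, to 354 higher with the plain empirical Bayes fit, and to 69 and 142 with the replicate block. Without untreated replicates 1, 2 and 3 it was 231, 76 and 231 higher and 274, 147 and 441 lower, and without treated replicates 1, 2 and 3 it was 267, 142 and 412 higher and 346, 246 and 588 lower. Copper genes called higher numbered 0 with no filter or with the block, 2 with median-ratio scaling, and 0 to 1 without 1 library. The 1 came without treated replicate 1 and was a gene other than SLC31A2, whose limma adjusted p was then 0.0794. Promoter factors called higher numbered 0 with no filter, with the plain fit and with the block, and 0 to 1 without 1 library. Metal-inducible genes outside MTF1 called higher numbered 0 with no filter or with the block, and 1 to 2 without 1 library. The deviations of same-numbered libraries from the group means correlated at -0.043, 0.009 and -0.023. The highest correlation, 0.102, joined untreated replicate 1 with treated replicate 3. Such correlations over all tested genes could miss a weak pairing, so whether same-numbered libraries were paired stays unknown. Depth limits MT1F, MT1H and MT1B, which rest on few fragments.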

Other observations

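The pseudogene MT2P1 on chromosome 4 (183 bases, outside the lists and named after its values were seen) was at 0, 20.8 and 40.9 FPKM without and at 0, 64.4 and 0 FPKM with doxycycline. At the weight of 1 fragment in genes of that length, the highest of these values corresponds to about 7 fragments. MT1XP1, also a pseudogene, was at 17.6 FPKM in untreated replicate 2 and at 0 in the other 5 libraries. No difference between the groups is read from either row.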
